A study of Homo sapiens with 14 samples.

Results

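The 9 genes described here are the simple keratins KRT8, KRT18 and KRT19, the claudins CLDN3, CLDN6 and CLDN7, the surface protein gene EPCAM and the cadherins CDH1 and CDH2. They were chosen by symbol from the 22410 genes that the deposited tables resolved, with 1 transcript per gene, the one highest in mean library-scaled fragments (FPM). The choice was made knowing that KRT8 and KRT19 lay lower in SA1Q than in ctrl. Values of SA1Q against ctrl are therefore a description here, and no test of that comparison is read as a result. All 9 had counts in each of the 14 libraries and all 9 passed the filter on low counts.

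Polyadenylated RNA of 293 Flip-In T-REx cells, a line from human embryonic kidney with a single site for inserting a transgene, was sequenced in 7 groups of 2 libraries. The SA1Q+gRNA and SA1Q groups carry the SNAP-ADAR1Q gene, the SA1+gRNA group carries SNAP-ADAR1, the SA2Q+gRNA and SA2Q groups carry SNAP-ADAR2Q, the SA2+gRNA group carries SNAP-ADAR2, and ctrl carries an empty vector. A SNAP-ADAR joins the SNAP tag, which bonds to a chemically modified guide RNA, to the deaminase domain of an adenosine-to-inosine editing enzyme. In the Q forms, known for higher activity, 1 glutamate of that domain is changed to glutamine, and +gRNA marks the groups given guide RNA. All groups share the same host line. No library came from an empty-vector line with guide or from SA1 or SA2 lines without guide, so the unmutated enzymes were compared only with guide present. The labels do not state the guide's target, any induction of the transgene, or how many clones stand behind each line. The series describes 2 biologically independent experiments. If the libraries of a line came from 1 clone, a difference between lines cannot be told apart from a difference between clones.

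Library totals ran from 43.0 to 130.1 M fragments, the highest in SA1+gRNA replicate 2, whose counts were all even numbers. ADAR, the parent of SA1, stood at 1085 to 1603 CPM (counts scaled to library size) in the 6 libraries of the SA1 lines, against 297 to 340.1 CPM in the other 8. ADARB1, the parent of SA2, stood at 939.5 to 1163 CPM in the 6 libraries of the SA2 lines, against 25.5 to 37.2 CPM in the other 8. These levels check the enzyme and not the Q change or the guide. On the first principal component ctrl replicate 1 and SA1Q+gRNA replicate 1 stood apart at -39.7 and -43.9, with the other 12 libraries between 0.30 and 13.7. Several results that rest on this pair are given with and without it. For KRT8, KRT19 and CLDN7 in SA1Q+gRNA against ctrl, a range is given over alternatives that include leaving it out. Without it ctrl and SA1Q+gRNA keep 1 library each, which is assumed to vary like the other groups, as is any group whose other library is left out. The 293 cell markers were present in every library, among them the neurofilament gene NEFL at 101 to 204 CPM.

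Keratins 8, 18 and 19 are the intermediate filament proteins of single-layered epithelia. A filament needs a type II keratin such as keratin 8 paired with a type I keratin such as keratin 18 or 19. Claudins are the membrane proteins that form tight junction strands and set which ions and solutes pass between cells. Cadherins hold neighbouring cells together at adherens junctions. E-cadherin, from CDH1, is typical of epithelia, and N-cadherin, from CDH2, of neural and mesenchymal cells. EpCAM is an epithelial adhesion protein that can bind claudin-7 in the membrane.

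The genes fell into an abundant and a scarce set. Per transcript length, as deposited FPKM (fragments scaled to transcript length and library), KRT8 averaged 131 ± 16, KRT18 86.5 ± 6.1, KRT19 53.1 ± 7.4, EPCAM 49.2 ± 3.5 and CDH2 19.1 ± 2.7 FPKM (SD over the 14 libraries of all groups). The order from KRT8 to KRT18 and from EPCAM to CDH2 held in all 14 libraries, while KRT19 exceeded EPCAM in 9 of 14. The scarce set had means under 1 FPKM, with CDH1 at 0.642 ± 0.15, CLDN7 at 0.419 ± 0.18, CLDN3 at 0.357 ± 0.10 and CLDN6 at 0.146 ± 0.074 FPKM. CDH1 exceeded CLDN7 in 12 libraries, CLDN7 exceeded CLDN3 in 9, and CLDN3 exceeded CLDN6 in 13. The cells thus carried far more N-cadherin than E-cadherin transcript, with a CDH2 to CDH1 ratio of FPKM between 20.1 and 72.5. By level, the epithelial name rests on the keratins and EPCAM, with CDH1 and the claudins near the low end. The samples are bulk cultures, so fewer cells with a transcript and less of it per cell cannot be told apart in any value below.

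**Figure D1:**
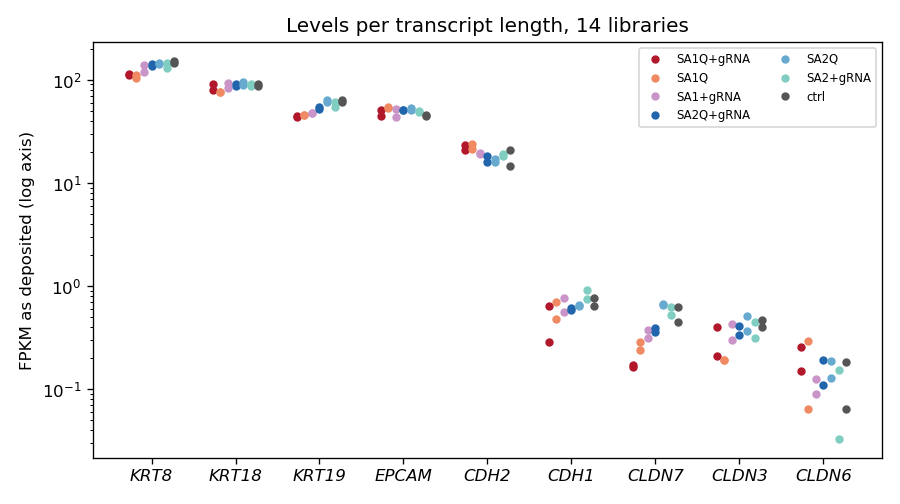
Deposited FPKM (log axis) of the 9 genes, ordered by mean, with 1 point per library and a colour per group. KRT8, KRT18, KRT19, EPCAM and CDH2 lie above 14 FPKM in every library, and CDH1, CLDN7, CLDN3 and CLDN6 below 1 FPKM.

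Between the lines, 4 of the 9 genes differed. With both Q groups of each line pooled, 4 libraries against 4, KRT8, KRT19 and CLDN7 were lower and CDH2 was higher in the SA1Q line than in the SA2Q line, where 2.75% of all 16418 tested genes passed (1.72% lower, 1.03% higher; edgeR's quasi-likelihood test, adjusted p under 0.05). The other 5 did not pass, and DESeq2 called the same 4. The median log2 change of the 9 was -0.23, against 0.00 over all tested genes. The SA1Q libraries in this contrast were among those whose KRT8 and KRT19 levels were known when the genes were chosen. These counts are therefore not independent support for those keratins. Other groups set against ctrl reuse its libraries, so the same holds there for KRT8 and KRT19. It also holds for the test over all 7 groups, which takes in the SA1Q and ctrl libraries. In that test KRT19 (adjusted p = 0.0078, edgeR) and CLDN7 (adjusted p = 0.012) passed, where 1.57% of all genes did, and KRT8 (adjusted p = 0.053) and CDH2 (adjusted p = 0.15) did not. CDH2 and KRT8 passed as well without the pair of libraries that stood apart (adjusted p = 0.0046 and 0.0054, edgeR).

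KRT8 (hg19 chromosome 12, 53290971 to 53343650, minus strand), the type II partner, had 272 and 251 CPM in SA1Q+gRNA and 231 and 251 CPM in SA1Q. It had 269 and 317 CPM in SA1+gRNA, 308 and 327 CPM in SA2Q+gRNA, 319 and 331 CPM in SA2Q, 329.6 and 299 CPM in SA2+gRNA, and 349 and 322 CPM in ctrl. The SA1Q line libraries were the lowest apart from SA1+gRNA replicate 1, which lay among them. KRT8 thus did not separate this line from the other 10 libraries, and its SA1Q and ctrl levels were known at the choice. The line difference was -0.36 on the log2 scale (SE 0.06, adjusted p = 0.010, edgeR), from means of 251 ± 17 CPM in the SA1Q line and 321 ± 10 CPM in the SA2Q line (SD, n = 4 each). It was -0.39 without the pair of libraries that stood apart. The call was lost without SA1Q replicate 1, SA2Q replicate 2 or SA2Q+gRNA replicate 2, at -0.33, -0.34 and -0.33. Against ctrl the log2 change was -0.48 in SA1Q, a description, and -0.36 in SA1Q+gRNA (adjusted p = 0.074, edgeR), short of the threshold. Over 23 alternatives, among them the fit without the pair that stood apart, the SA1Q+gRNA change ran from -0.42 to -0.30.

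KRT19 (hg19 chromosome 17, 39679869 to 39684641, minus strand), a type I keratin that lacks the usual tail domain, had 71.4 and 68.8 CPM in SA1Q+gRNA, 69.1 and 71.0 CPM in SA1Q, and 74.0 and 75.5 CPM in SA1+gRNA. Its values were 80.4 and 85.8 CPM in SA2Q+gRNA, 94.1 and 97.7 CPM in SA2Q, 95.6 and 86.3 CPM in SA2+gRNA, and 95.4 and 97.0 CPM in ctrl. All 6 libraries of the SA1 enzymes, mutated or not, lay below the other 8, an arrangement found in this direction for 0.365% of all genes tested. It takes in the SA1Q and ctrl libraries known when KRT19 was chosen, so it is not independent support for this gene. SA1Q+gRNA and SA1Q overlapped each other, and ctrl, SA2Q and SA2+gRNA formed an overlapping top. The SA1Q line averaged 70.1 ± 1.3 CPM and the SA2Q line 89.5 ± 7.8 CPM (SD, n = 4 each), a log2 difference of -0.35 (SE 0.06, adjusted p = 0.0051, edgeR), which passed under every alternative tried. SA1Q+gRNA lay 0.46 below ctrl on the log2 scale (adjusted p = 0.012, edgeR), with 1.04% of all genes called in that comparison. Its log2 change ran from -0.50 to -0.44 over 23 alternatives, among them the fit without the pair that stood apart. This and the next comparison reuse the ctrl libraries known when KRT19 was chosen, so neither is independent support. SA1+gRNA was at -0.36 against ctrl (adjusted p = 0.13, edgeR). That comparison passed under 3 of 23 alternatives: with DESeq2 (adjusted p = 0.0056), without the pair that stood apart, and without SA1Q+gRNA replicate 2. Both of these last fits leave a group with 1 library. Over the 23 alternatives the log2 change ran from -0.38 to -0.23.

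KRT18 (hg19 chromosome 12, 53342843 to 53346685, plus strand), the usual type I partner of keratin 8, stayed within 115 to 147 CPM. It had 147 and 121 CPM in SA1Q+gRNA and 115 and 118 CPM in SA1Q, against 144 and 133 CPM in ctrl, so that SA1Q held the 2 lowest libraries and SA1Q+gRNA replicate 1 the highest. The line difference was -0.17 (SE 0.07, adjusted p = 0.22, edgeR). It passed at -0.24 without the pair that stood apart (adjusted p = 0.0086, edgeR) and at -0.24 without SA1Q+gRNA replicate 1 alone (adjusted p = 0.042). The ratio of KRT8 to the sum of KRT18 and KRT19 in FPKM was 0.875 ± 0.035 in SA1Q+gRNA and 0.885 ± 0.035 in SA1Q (SD, n = 2 each). It was 0.943 ± 0.050 in SA1+gRNA, 0.981 ± 0.0069 in SA2Q+gRNA, 0.934 ± 0.0045 in SA2Q, 0.936 ± 0.023 in SA2+gRNA and 0.975 ± 0.029 in ctrl. SA1+gRNA replicate 1, at 0.907, lay below SA1Q replicate 2, at 0.910, so the SA1Q line did not separate from the other libraries. By this ratio KRT8 was near parity with KRT18 and KRT19 together in every library, from 0.850 to 0.995. The ratio leaves out other keratins, among them KRT10 at 25.5 to 42.6 CPM. It also depends on the length of the chosen KRT8 transcript, 2150 bases, where the shortest has 1796. The chosen KRT8 transcript overlaps KRT18 on the opposite strand, and the sources used here do not say whether strand was used in counting. Counted by its shortest transcript, which does not overlap KRT18, KRT8 gave a line difference of -0.36 (adjusted p = 0.0088, edgeR). Keratin pseudogene rows numbered 3 in the tables, and fragments shared with them could not be told apart.

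**Figure D2:**
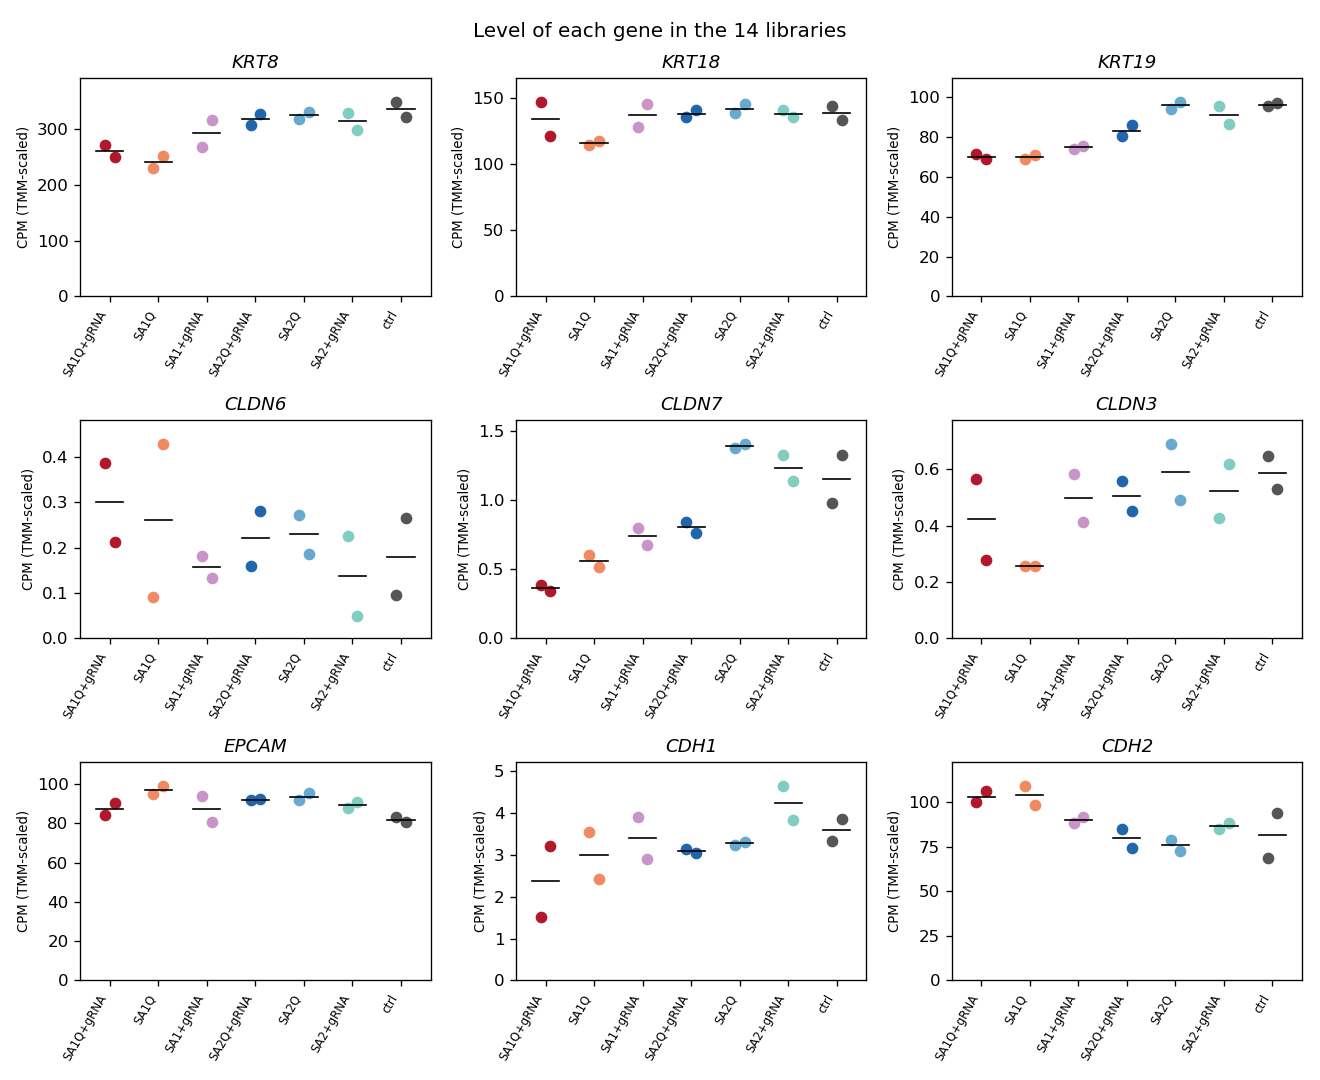
TMM-scaled CPM of the 9 genes in each of the 14 libraries (points), with the group mean (line); every axis starts at 0. KRT19 in the SA1Q+gRNA, SA1Q and SA1+gRNA groups lies at 68.8 to 75.5 CPM, below all other libraries, and CLDN7 is lowest in SA1Q+gRNA.

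CLDN7 (hg19 chromosome 17, 7163222 to 7166264, minus strand) showed the widest spread among the genes that passed, at counts of 15 to 83 fragments. SA1Q+gRNA had 0.386 and 0.345 CPM, SA1Q 0.603 and 0.515 CPM, and SA1+gRNA 0.801 and 0.677 CPM. SA2Q+gRNA had 0.845 and 0.765 CPM, SA2Q 1.38 and 1.41 CPM, SA2+gRNA 1.33 and 1.14 CPM, and ctrl 0.979 and 1.33 CPM. The 4 SA1Q line libraries lay below the other 10, an arrangement held in this direction by 1.94% of all genes tested, and by KRT19 too. The line difference was -1.23 on the log2 scale (SE 0.20, adjusted p = 0.0053, edgeR), between 0.462 ± 0.12 CPM in the SA1Q line and 1.10 ± 0.34 CPM in the SA2Q line (SD, n = 4 each), and it passed under every alternative. SA1Q+gRNA stood at -1.67 against ctrl (SE 0.29, adjusted p = 0.014, edgeR). Without ctrl replicate 2 this was -1.43 and short of the threshold. Over 23 alternatives, among them the fit without the pair that stood apart, the log2 change ran from -1.94 to -1.43. CLDN7 overlaps ELP5, an Elongator subunit gene on the opposite strand, which ran from 78.8 to 117 CPM and had a line difference of -0.06. At counts this low the precision is limited, and the number of fragments that ELP5 lends to CLDN7 was not tested.

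CLDN7 libraries with guide lay below those without it in each Q line, a difference that did not pass the test. The log2 change was -0.63 for SA1Q+gRNA against SA1Q (adjusted p = 0.43, edgeR) and -0.79 for SA2Q+gRNA against SA2Q (adjusted p = 0.9997). Each comparison called 0% of all genes. Libraries did not overlap within either pair of groups. With 2 libraries against 2, and the share of all genes arranged so not counted, nothing is read from this. Without SA1Q+gRNA replicate 2, which leaves that group 1 library, SA1Q+gRNA against SA1Q called 2115 genes, 1141 of them higher. Averaged over both lines the guide change of CLDN7 was -0.71 (SE 0.20, unadjusted p = 0.0031, adjusted p = 0.80, edgeR). In that contrast 929 of 16418 genes had an unadjusted p under 0.05, and 0 were called. The guide change in the SA1Q line minus that in the SA2Q line was 0.16 (adjusted p = 0.92, edgeR). With guide in both groups, CLDN7 was at -1.01 in SA1Q+gRNA against SA1+gRNA (adjusted p = 0.11, edgeR) and -0.61 in SA2Q+gRNA against SA2+gRNA (adjusted p = 0.57).

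The other claudins of the set were too scarce for firm values. CLDN3 (hg19 chromosome 7, 73183327 to 73184600, minus strand) had 0.256 and 0.257 CPM in SA1Q, its 2 lowest libraries, but 0.566 and 0.279 CPM in SA1Q+gRNA, against 0.645 and 0.530 CPM in ctrl. Its line difference was -0.75 (SE 0.30, adjusted p = 0.21, edgeR), and it passed without the pair that stood apart, at -1.02 (adjusted p = 0.047). CLDN6 (hg19 chromosome 16, 3064713 to 3068188, minus strand), a claudin of embryonic epithelia, had 3 to 20 fragments a library and ran from 0.0487 to 0.429 CPM, with each group overlapping the next in rank. Its line difference of 0.27 (SE 0.51) turned to -0.45 without SA1Q replicate 2.

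Of the cadherins, CDH2 (hg19 chromosome 18, 25530930 to 25757445, minus strand) was the one gene of the 9 that passed as higher in the SA1Q line. It had 99.8 and 106 CPM in SA1Q+gRNA and 109 and 98.5 CPM in SA1Q, then 87.9 and 91.5 CPM in SA1+gRNA. In the others it had 84.7 and 74.3 CPM (SA2Q+gRNA), 78.8 and 72.8 CPM (SA2Q), 84.7 and 88.5 CPM (SA2+gRNA), and 68.8 and 94.0 CPM (ctrl). All 4 SA1Q line libraries lay above the other 10, as 1.67% of all genes tested did. The line difference was 0.41 (SE 0.08, adjusted p = 0.019, edgeR), between 103 ± 5.0 CPM in the SA1Q line and 77.7 ± 5.4 CPM in the SA2Q line (SD, n = 4 each), and 0.43 without the pair that stood apart. The call was lost without SA1Q replicate 1 (0.38), SA2Q replicate 1 (0.44), SA2Q replicate 2 (0.39) or SA2Q+gRNA replicate 2 (0.37). Against ctrl, whose replicates differed most for this gene, SA1Q+gRNA stood at 0.34 (adjusted p = 0.21, edgeR). Without ctrl replicate 1 and SA1Q+gRNA replicate 1 it was 0.17, and without ctrl replicate 2 it was 0.58 (adjusted p = 0.022).

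CDH1 (hg19 chromosome 16, 68771195 to 68869444, plus strand) had 1.52 and 3.22 CPM in SA1Q+gRNA and 3.54 and 2.42 CPM in SA1Q, against 3.32 and 3.84 CPM in ctrl, and reached 4.65 CPM in SA2+gRNA replicate 1. The lowest value came from SA1Q+gRNA replicate 1, which stood apart in the whole data. The line difference was -0.23 (SE 0.19, adjusted p = 0.58, edgeR), and -0.03 without the pair. EPCAM (hg19 chromosome 2, 47596287 to 47614167, plus strand), which holds the microRNA gene MIR559 within its span, had 84.4 and 90.4 CPM in SA1Q+gRNA and 94.7 and 99.1 CPM in SA1Q, against 83.1 and 80.7 CPM in ctrl. Its line difference was -0.01 (SE 0.06, adjusted p = 0.94, edgeR). EPCAM was the steadiest of the 9, with its highest library 1.23 times its lowest.

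**Figure D3:**
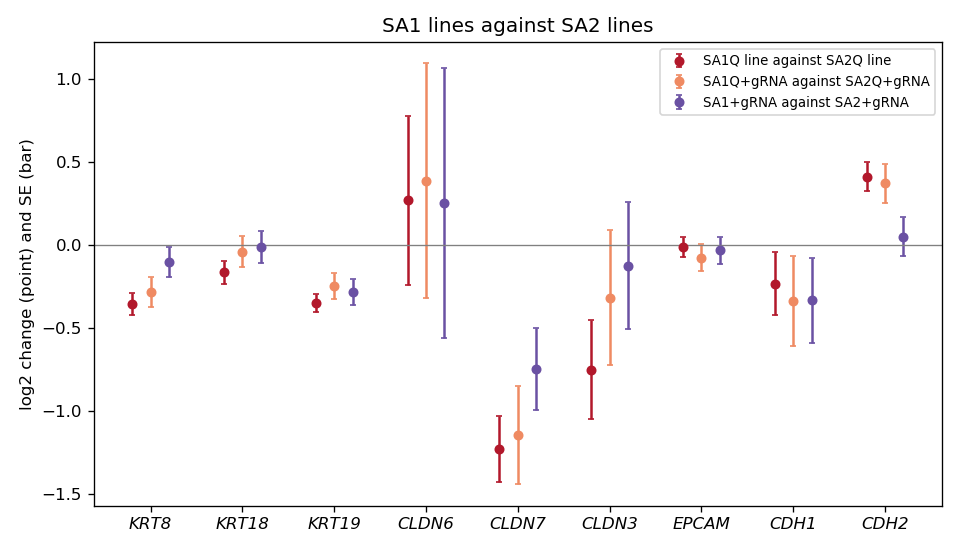
Log2 change and SE of each gene in 3 contrasts of an SA1 line against an SA2 line: both Q groups pooled, the Q groups with guide, and the unmutated enzymes with guide. In the pooled contrast KRT8, KRT19 and CLDN7 lie below 0 at -0.36, -0.35 and -1.23 and CDH2 above 0 at 0.41.

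The contrast of SA1Q+gRNA with SA2Q+gRNA uses no library of the comparison known when the genes were chosen, and was added after values were seen. The 4 genes kept the sign of the pooled contrast, with log2 changes of -1.15 for CLDN7 (SE 0.30, adjusted p = 0.16, edgeR), -0.25 for KRT19 (SE 0.08, adjusted p = 0.26), -0.28 for KRT8 (SE 0.09, adjusted p = 0.27) and 0.37 for CDH2 (SE 0.12, adjusted p = 0.27). No member passed with edgeR or DESeq2, and 0.0975% of all genes were called. At an unadjusted p under 0.05 there were 4 of the 9, and 11.9% of all genes. CDH2 passed without the pair that stood apart (adjusted p = 0.039, edgeR), with 1 SA1Q+gRNA library left. The pooled contrast holds these libraries too.

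For the unmutated enzymes, SA1+gRNA against SA2+gRNA, also added after values were seen, CLDN7 was at -0.75 (SE 0.25, adjusted p = 0.91, edgeR), KRT19 at -0.28 (SE 0.08, adjusted p = 0.76), KRT8 at -0.10 (SE 0.09, adjusted p = 0.97) and CDH2 at 0.05 (SE 0.12, adjusted p = 0.99). No member passed with edgeR or DESeq2, and 0.0122% of all genes were called. At an unadjusted p under 0.05 there were 2 of the 9, and 4.79% of all genes. The difference between SA1 and SA2 lines in their Q against unmutated change, with guide, was -0.18 for KRT8 (adjusted p = 0.67, edgeR), 0.04 for KRT19 (0.94), -0.40 for CLDN7 (0.76) and 0.32 for CDH2 (0.57). None of these differences passed the test, and 0 genes of the whole table did, with 1542 at an unadjusted p under 0.05.

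The remaining contrasts called none of the 9 with edgeR. Beside each range stand the share of all genes called, the members at an unadjusted p under 0.05 and the share of all genes at that p. Against ctrl the 9 ran from -0.13 to 0.28 in SA2Q (0.0853% called, 1 member, 8.86% of all genes), from -0.53 to 0.24 in SA2Q+gRNA (0.067%, 1 member, 10.1%), from -0.67 to 0.14 in SA1+gRNA (0.0426%, 3 members, 10.7%) and from -0.55 to 0.23 in SA2+gRNA (0.104%, 0 members, 10.2%). These comparisons share the ctrl libraries. With against without guide, they ran from -0.63 to 0.66 in the SA1Q line (0%, 1 member, 12.2%) and from -0.79 to 0.07 in the SA2Q line (0%, 2 members, 1.77%). The Q form against the unmutated enzyme gave -1.01 to 0.92 for SA1 (0.962%, 1 member, 17.4%) and -0.61 to 0.79 for SA2 (0.0122%, 1 member, 7.86%). DESeq2 called 0 members in these comparisons except for KRT19 in SA1+gRNA against ctrl. In SA1Q against ctrl, where 2.8% of all genes were called, the log2 changes were -0.46 for KRT19, -0.26 for KRT18, -1.05 for CLDN7, -1.18 for CLDN3, 0.24 for EPCAM and 0.35 for CDH2, beside the -0.48 of KRT8. The 2 members past the threshold there, KRT8 and KRT19, were the ones that prompted the choice, and nothing is read from that count.

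**Figure D4:**
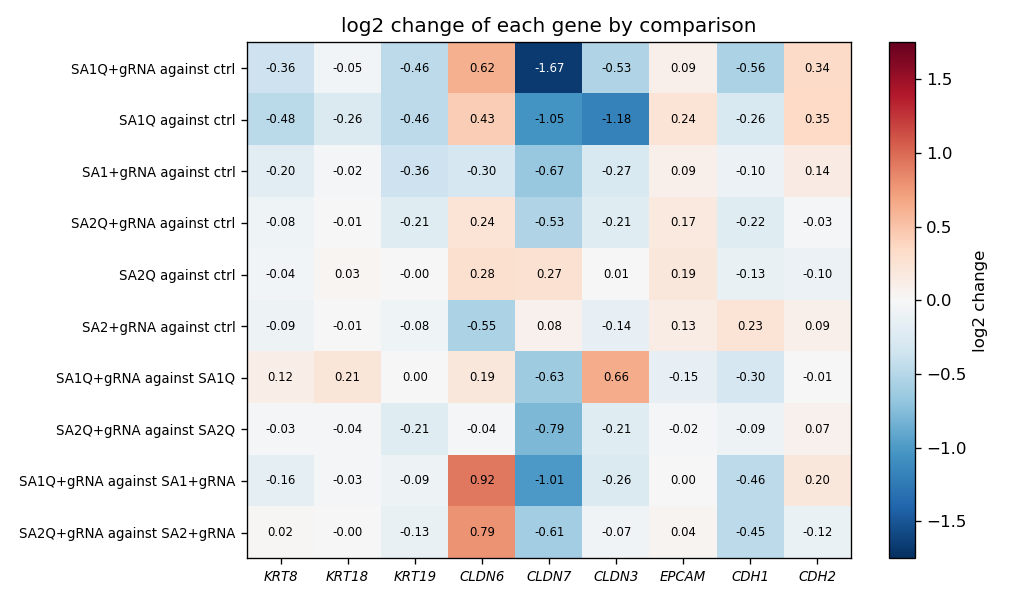
Log2 change of the 9 genes (columns) in 10 comparisons (rows), printed in each cell and coloured from blue (lower) to red (higher). CLDN7 has its lowest value, -1.67, in SA1Q+gRNA against ctrl, and the SA2 rows stay within -0.79 to 0.79.

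Base composition moved with some contrasts. Across genes, the log2 change of SA1Q against ctrl had a Spearman correlation of -0.47 with GC content, and that of the pooled line contrast -0.13. It was 0.58 for SA1Q+gRNA against SA1Q, 0.41 for SA1Q+gRNA against SA1+gRNA, 0.26 for SA1Q+gRNA against SA2Q+gRNA, 0.03 for SA1Q+gRNA against ctrl, -0.42 for SA1+gRNA against SA2+gRNA and -0.47 for SA1+gRNA against ctrl. KRT8, KRT19 and CLDN7 had 59.1%, 61.8% and 56.0% GC and CDH2 45.0%, against a median of 50.0% over genes. With an offset for transcript size and GC content, the pooled calls stayed at -0.32 for KRT8, -0.30 for KRT19, -1.19 for CLDN7 and 0.39 for CDH2. In SA1Q against ctrl the same offset brought KRT19 to -0.27 and KRT8 to -0.33.

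Upstream sequence is shown for the called genes that the RefSeq promoter table (build GRCh38.p14) holds, as these are the genes that differed between the lines. It matched 5 of the 9 genes by symbol, in 7 windows. Shown are the 250 bases before 1 annotated start of KRT8, of the second CLDN7 window and of the first CDH2 window, read 5′ to 3′ on the gene's strand. Capitals mark CACCTG or its reverse complement CAGGTG, an E-box form that zinc finger repressors of the SNAI and ZEB families are known to bind in epithelial genes. Positions on this build were not converted to those of the counted transcripts. Which CLDN7 window lies before the counted transcript was therefore not determined, nor whether the KRT8 and CDH2 windows do. KRT8 transcripts on hg19 began at 53298868, 53320253 or 53343650, the last being the start of the counted one.
KRT8, chr12:52926470-52926719, minus strand: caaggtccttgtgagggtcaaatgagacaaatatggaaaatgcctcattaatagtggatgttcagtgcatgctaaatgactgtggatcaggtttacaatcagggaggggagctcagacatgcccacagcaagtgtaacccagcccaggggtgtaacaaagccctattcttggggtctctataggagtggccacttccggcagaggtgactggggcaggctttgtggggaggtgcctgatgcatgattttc
CLDN7, chr17:7262479-7262728, minus strand: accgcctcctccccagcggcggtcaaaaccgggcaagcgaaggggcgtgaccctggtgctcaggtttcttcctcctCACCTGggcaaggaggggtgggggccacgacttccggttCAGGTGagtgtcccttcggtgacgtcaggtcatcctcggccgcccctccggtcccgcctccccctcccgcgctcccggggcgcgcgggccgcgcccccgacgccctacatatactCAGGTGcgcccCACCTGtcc
CDH2, chr18:28177131-28177380, minus strand: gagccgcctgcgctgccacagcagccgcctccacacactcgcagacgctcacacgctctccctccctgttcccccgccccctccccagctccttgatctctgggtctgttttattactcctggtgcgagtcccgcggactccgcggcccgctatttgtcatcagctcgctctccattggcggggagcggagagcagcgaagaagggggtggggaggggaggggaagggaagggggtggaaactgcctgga
The CLDN7 window held 4 matches, beginning 174, 135, 20 and 9 bases before the start, whereas the KRT8 and CDH2 windows held 0, as did the other CLDN7 window. Of 35116 windows of this length, 17.5% held at least 1 match and 0.122% at least 4. The CLDN7 window shown had the most matches of the 7 windows of these genes. The 0.122% is therefore not the share for a window fixed beforehand. The CLDN7 window was 71.2% G or C and the KRT8 window 50.4%, against a median of 58.0% over all windows. A match is a run of letters and says nothing here of binding.

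Other genes of the same structures were taken from lists. Calls among them stand beside the 2.75% of all genes called in the pooled line contrast (1.72% lower, 1.03% higher). At an unadjusted p under 0.05 (edgeR) there were 16.8% of all genes and 1 of 11 adherens junction partners. There were also 4 of 9 EpCAM partners and epithelial surface proteins, 2 of 5 other keratins, 2 of 7 other cadherins and 3 of 10 desmosome genes. In the pooled line contrast, among keratin and adhesion partners JUP, which encodes plakoglobin, a catenin of both adherens junctions and desmosomes, fell by 0.48 on the log2 scale in the SA1Q line (SE 0.08, adjusted p = 0.0051, edgeR). It averaged 76.1 ± 8.1 CPM in the SA1Q line and 107 ± 5.1 CPM in the SA2Q line (SD, n = 4 each), and was the one called of 11 tested adherens junction partners. Among 9 tested EpCAM partners and epithelial surface proteins, the Kunitz protease inhibitors SPINT1 (-0.64, adjusted p = 0.0051, edgeR) and SPINT2 (-0.37, adjusted p = 0.0075) were lower. SPINT2 averaged 172 ± 13 CPM in the SA1Q line and 221 ± 9.3 CPM in the SA2Q line. KRT17, a stress-associated keratin, was lower, at -0.79 (adjusted p = 0.034, edgeR) at 1.30 ± 0.35 CPM in the SA1Q line and 2.24 ± 0.38 CPM in the SA2Q line, 1 of 5 tested other keratins. On hg19 chromosome 17, KRT17 (from 39775692) and JUP (from 39910859) lie close to KRT19 (from 39679869). A part of shared position in these changes was not tested.

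In the other direction, the cadherin gene CDH4, encoding R-cadherin, a close relative of N-cadherin, was higher by 0.48 (adjusted p = 0.016, edgeR), 1 of 7 tested other cadherins. The desmosomal cadherin gene DSC3 was higher by 0.43 (adjusted p = 0.034), 1 of 10 tested desmosome genes, while the plaque gene DSP (0.14) and the cadherin gene DSG2 (0.07) did not pass. None of 10 tested other claudins, 19 tight junction and polarity genes, 12 epithelial regulators or 13 mesenchymal state genes passed with edgeR. At an unadjusted p under 0.05 there were 1, 5, 1 and 4 of them, where 16.8% of all genes were, and DESeq2 called 0, 1 (PARD3), 0 and 1 (MMP2). Their values included -0.15 for CLDN12, 0.07 for CLDN15, 0.15 for the scaffold gene TJP1, -0.05 for the splicing factor gene ESRP2, 0.48 for the matrix gene FN1 (adjusted p = 0.13, edgeR) and 0.11 for VIM, the mesenchymal intermediate filament gene, which ran from 958 to 1285 CPM. ZEB1, a repressor of CDH1, ran from 41.6 to 51.4 CPM and SNAI1 from 3.04 to 5.99 CPM.

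Markers of other cell types were counted beside these results. The summed blood cell markers ran from 123 to 142 CPM in the SA1Q line, 169 to 182 CPM in the SA2Q line and 160.3 to 162 CPM in ctrl. Most of each sum was LCP1, at 110 to 163 CPM over the 14 libraries. CD68 had 10.7 to 21.8 CPM, CD14 0.211 to 0.815 CPM and PTPRC 0.149 to 0.406 CPM. The sum is thus largely the level of 1 gene and no measure of blood cell content. LCP1 (-0.40, adjusted p = 0.0019, edgeR) and CD68 (-0.74, adjusted p = 0.0021) were lower in the SA1Q line, 2 of the 4 tested of 9 listed. Of all genes tested, 2.75% were called in that contrast. CD68 (from 7482805) lies near CLDN7 (from 7163222) on hg19 chromosome 17. Of the defining markers, CD3E, HBB and TYROBP were at 0 in 6, 6 and 7 libraries, and PTPRC had 9 to 18 fragments. Fibroblast markers (21.0 to 29.5 CPM) and endothelial markers (3.26 to 4.55 CPM) had no member called with edgeR (2 of 8 and 1 of 4 tested at an unadjusted p under 0.05, against 16.8% of all genes, and COL1A1 alone with DESeq2), and DCN, THY1, PECAM1 and TEK were at 0 in 3, 4, 4 and 4 libraries. The part of other cells in the keratin and claudin results was not tested.

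Genes whose level followed these members most closely were found among 10221 genes with a mean of at least 10 CPM, by Pearson correlation of log2 CPM over the 14 libraries, which share lines, depth and base composition. KRT19 was followed by the pleckstrin homology gene PLEKHA6 (r = 0.96, and 0.94 over the 10 libraries outside the SA1Q line), PITPNM1 (0.94 and 0.90) and the collagen receptor gene DDR1 (0.93 and 0.87). KRT8 was followed by RNF10 (0.93 and 0.66), ARRDC1 (0.93 and 0.94) and ZBTB7B (0.92 and 0.66). CDH2 was followed by DSC3 (0.96 and 0.94), which also lies on chromosome 18, the neural adhesion gene NCAM1 (0.94 and 0.94) and the metalloproteinase inhibitor gene TIMP3 (0.94 and 0.85). CLDN6, at its sparse counts, reached at most 0.80, for GTF2IRD1. Among the members, KRT19 and CLDN7 gave 0.91 over 14 libraries and 0.85 over the 10 outside the SA1Q line.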

How the data were processed

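Each of the 14 files gave, per RefSeq transcript on hg19, 3 columns. Counts were whole fragments per transcript, deposited by the authors without normalization. The FPM column, a coverage signal scaled by the authors to the library, served only to choose transcripts. FPKM, which the authors scaled by length and depth per the file headers, gave levels between genes. Per the submitters' processing notes, Trim Galore and STAR 2.4.2a were used; no source used here names the counter or its use of strand. Accessions were named with RefSeq and GENCODE tables (98.6%); unnamed rows held 0.79% to 0.82% of counts and were left out, as were transcripts under 200 bases.

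Counts of 16418 genes (filterByExpr, minimum count 10) entered a quasi-likelihood fit of all 14 libraries with TMM scaling and no covariate (edgeR 4.0.16, R 4.3.3, two-sided tests), with Benjamini-Hochberg adjustment over all genes in each comparison. CPM values are TMM-scaled. Common biological variation (as a coefficient) came to 8.67% with 7 residual degrees of freedom, and p-values measure the spread between 2 libraries a group. The fit was tested on simulated data. Alternatives were median-ratio factors, DESeq2 1.42.0, no filter, other transcripts, a size and GC offset, halved counts in SA1+gRNA replicate 2, a replicate block, and leaving out libraries. The members and lists were chosen with earlier results of these data known. All 9 members were named; of other lists, up to 3 genes with the smallest p over the 7 groups, or the 2 most abundant where none passed, and genes called between the lines. Values of 2 listed marker genes are not reported here.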

Additional observations from a re-analysis of the deposited data

How the results depend on the processing

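The number of the 9 genes called over the 7 groups was 2, and 4 with no low-count filter, without both libraries that stood apart, with the size and GC offset, and with DESeq2; leaving out single libraries gave 1 (without SA2Q replicate 2) to 4 (without ctrl replicate 1 or 2). The pooled line contrast called 4, and 2 to 5 with a library left out, the 2 being KRT19 and CLDN7. SA1Q against ctrl, a description here, went from 2 to 1 with the offset and 0 to 3 with a library left out, 0 without either SA1Q replicate and 1 without ctrl replicate 1. Nothing is read from these counts for SA1Q against ctrl, as KRT8 and KRT19 were chosen with that comparison known. They are no measure of how stable a finding is. SA1Q+gRNA against ctrl went to 4 with the offset. SA1+gRNA against ctrl went to 1 without both libraries that stood apart and with DESeq2, and 0 to 1 with a library left out. SA1Q+gRNA against SA1Q gave 0 to 2 and SA1Q+gRNA against SA1+gRNA 0 to 1 with a library left out, in both cases the highest without SA1Q+gRNA replicate 2, and the offset gave the last 1. SA1Q+gRNA against SA2Q+gRNA went to 1 without both libraries that stood apart and to 2 with the offset. The cause of these shifts was not tested. Signs turned for EPCAM in the line contrast (0.012 without both libraries that stood apart, and -0.038 to 0.012 with a library left out) and for CLDN6 there (-0.45 to 0.65). They also turned for KRT8 in SA1+gRNA against SA2+gRNA (-0.22 to 0.012, above 0 without SA1+gRNA replicate 1) and for KRT18 in SA1Q+gRNA against SA2Q+gRNA (-0.18 to 0.088, above 0 without SA1Q+gRNA replicate 2).

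The replicate numbers did not pair the libraries: deviations of same-numbered libraries correlated between -0.14 and 0.44 across groups. With the replicate block, the line contrast still called 4 members and the 7 groups 2, while calls over all genes were 303 with the block against 452 without it, and 160 against 258. With a library left out, the line contrast called 85 (without SA2Q replicate 2) to 735 of all genes (without SA1Q+gRNA replicate 1), 101 without SA2Q+gRNA replicate 2 and 117 without SA2Q replicate 1, and the 7 groups 91 (without SA1Q replicate 2) to 1057. The highest count came without SA1Q+gRNA replicate 2 for the 7 groups, for SA1Q+gRNA against ctrl (93 to 463, 171 with all libraries), against SA1+gRNA (17 to 2082, 158 with all) and against SA2Q+gRNA (2 to 668, 16 with all). Over all genes, the line contrast called 1959 without both libraries that stood apart, 1569 with the offset and 802 with DESeq2, and the 7 groups 1831, 1364 and 1352, and 716 with no filter. CLDN3, CLDN6 and CLDN7 are limited by depth. DESeq2 gave no adjusted p for CLDN6 in some comparisons.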
